A study of Mus musculus with 6 samples.

Results

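The 10 genes described here carry the unfolded protein response and the integrated stress response, from sensors to effectors: Ern1, Atf6, Atf4, Ddit3, Trib3, Asns, Chac1, Herpud1, Edem1 and Sdf2l1. They were chosen by name and not by any measured value. The table of counts had 26100 rows, of which 16633 had enough counts to be tested, and 11 rows carried one of the 10 symbols. The additional row, a duplicate model of Ddit3, had 0 counts in every library, and the remaining 10 rows, 1 per gene, were all tested. RNA was sequenced from lung tissue of 3 wild-type mice (WT) and 3 mice lacking Clec7a (KO), the gene of the fungal glucan receptor dectin-1 on myeloid cells. All 6 mice, wild types included, had received bleomycin into the trachea and were sampled at day 14, so every value below compares 2 injured groups and none compares injured with healthy lung. Bleomycin breaks DNA strands and is a standard way to produce lung fibrosis in mice. The labels give no strain, sex or age and do not say how the Clec7a allele was made.

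Proteins that are secreted or displayed on the cell surface fold in the endoplasmic reticulum (ER), and an excess of unfolded protein there is read by sensors in its membrane. IRE1 (gene Ern1) splices the Xbp1 message, ATF6 is cut in the Golgi to free a transcription factor, and PERK phosphorylates the translation factor eIF2α. Phosphorylated eIF2α, which is also produced by kinases that sense amino acid shortage, heme deficiency or viral RNA, slows translation at large while favouring that of ATF4. ATF4, later with CHOP (gene Ddit3), then switches on amino acid synthesis, transport and redox genes. In fibrotic lung these pathways are studied mainly in type 2 alveolar cells, which fold surfactant proteins, and in fibroblasts that secrete collagen. IRE1, ATF6 and PERK are themselves activated by clustering, cleavage or phosphorylation and ATF4 by translation, so the RNA level of a sensor or of Atf4 does not measure its activity.

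The target genes are read by transcription factors through short DNA elements near their start. Matches to such elements, for members whose values are given below, are shown here from RefSeq promoter windows of GRCm38.p6. A window covers 250 bases before to 50 bases after a gene's start, and 9 of the 10 genes had one, all but Atf6. The first set are the 4 members with the C/EBP-ATF composite element TGATGNAA, which ATF4 and CHOP bind with C/EBP partners. Its letters, on either strand, are in capitals, read from 5′ to 3′ on the gene's strand.
Asns, chr6:7693210-7693309, minus strand: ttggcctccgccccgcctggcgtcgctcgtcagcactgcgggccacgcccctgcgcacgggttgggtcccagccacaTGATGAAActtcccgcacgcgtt
Chac1, chr2:119351003-119351102, plus strand: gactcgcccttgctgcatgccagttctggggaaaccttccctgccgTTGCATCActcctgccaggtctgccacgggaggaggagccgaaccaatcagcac
Trib3, chr2:152344028-152344057, minus strand: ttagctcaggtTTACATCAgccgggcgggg
Herpud1, chr8:94386289-94386408, plus strand: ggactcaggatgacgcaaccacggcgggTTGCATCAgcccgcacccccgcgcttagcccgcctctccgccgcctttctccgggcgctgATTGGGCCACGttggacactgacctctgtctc
Counted from the RefSeq starts, the match lay 23 bases before Asns, 193 before Chac1 and 112 before Herpud1, and 15 bases into the transcript of Trib3. The GRCm38 gene annotation starts Asns at 7693254 and Trib3 at 152344032. By those starts the Asns match lies inside the gene and the Trib3 match before it, so these positions depend on the start used. The C/EBP-ATF element was in 3.97% of all 32851 windows searched. Herpud1 has a second run of capitals, 52 bases before its start: the ER stress element II, which is ATTGG and CCACG with 1 base between them and was in 0.0365% of windows. It overlaps 1 of the gene's matches to CCACG, the part that ATF6 and XBP1 read.

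The next pair of sequences sets the member Sdf2l1 beside Hspa5, the gene of the chaperone BiP and the usual example of an ATF6 target. Capitals mark CCACG or its reverse complement in Sdf2l1, and in Hspa5 the full ER stress element, CCAAT and CCACG with 9 bases between them.
Sdf2l1, chr16:17132384-17132633, minus strand: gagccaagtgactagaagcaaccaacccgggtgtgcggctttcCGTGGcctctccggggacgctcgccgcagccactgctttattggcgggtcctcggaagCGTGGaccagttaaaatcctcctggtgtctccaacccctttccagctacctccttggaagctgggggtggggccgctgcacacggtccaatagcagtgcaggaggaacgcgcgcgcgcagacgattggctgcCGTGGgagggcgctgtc
Hspa5, chr2:34771990-34772069, plus strand: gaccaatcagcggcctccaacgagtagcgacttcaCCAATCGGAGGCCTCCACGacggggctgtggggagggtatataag
Full ER stress elements were in 0.119% of windows and in 0 of the 9 members with a window. CCACG alone is common, in 32.8% of windows and in 7 of the 9. The XBP1-type element TGACGTGG (0.676% of windows) and the cyclic AMP response element TGACGTCA (1.79%) were in 0 of the 9. Among the other pathway genes named below by rule, TGACGTGG matched in Kdelr3, Sec24d and Vcp. Of those genes the full ER stress element matched in Dnajc3 besides Hspa5, and TGATGNAA only in Gars. Both strands were searched for every element, and a match describes letters, not binding.

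Levels of different genes can be set side by side only per length, in the deposited FPKM. On that scale the order by median over the 6 libraries was Atf4 (103.5), Herpud1 (49.5), Edem1 (29.3), Sdf2l1 (20.7), Ddit3 (17.4), Atf6 (17.0), Asns (12.4), Ern1 (8.74), Trib3 (2.46) and Chac1 (1.37). The FPKM of Atf4, from 84.7 to 107.1, stayed above every library's value for Herpud1, which ran from 33.2 to 71.3. Ern1 (4.90 to 9.53 FPKM) likewise stayed above Trib3 (1.70 to 4.65 FPKM). Compared within each library, Herpud1 was above Edem1 and Trib3 above Chac1 in FPKM in 6 of 6, although their ranges over the libraries overlapped. The neighbours from Edem1 down to Ern1 overlapped in range and kept their order in 4 or 5 of the 6 libraries.

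Clec7a, as the check of the labels, had 60.6, 84.0 and 196.5 CPM in WT replicates 1 to 3 and 3.60, 6.85 and 2.84 CPM in the KO replicates. CPM (counts divided by library size and put on a common scale) were corrected with edgeR's TMM factors. Library totals ran from 31052936 to 34451956 counts. The edgeR log2 fold change of Clec7a was -4.68 ± 0.61 (SE, n = 3 against 3), and its adjusted p was 0.203 in edgeR, equal to the smallest in the table, and 1.52e-14 in DESeq2. At the threshold of 0.05 edgeR thus called 0 of 16633 genes (0%). At an unadjusted p under 0.05 edgeR had 1968 genes (11.8%), while DESeq2 called 356 of 18663 genes higher (1.91%) and 322 lower (1.73%). Replicate 1 stood apart from the other libraries of its group in both genotypes. Mitochondrial genes took 3.87% of counts in WT replicate 1 and 7.34% in KO replicate 1 against 2.69% to 3.48% in the others, and the type 2 alveolar markers summed to 11516 and 22851 CPM against 2210 to 11897 CPM. Matrix-producing fibroblast markers summed to 13168 and 7002 CPM there, against 13807 to 44918 CPM in the others. Those sums include Spp1, which is not particular to fibroblasts and had 4514 CPM in WT replicate 1 and 3579 CPM in KO replicate 1. Without Fn1, the fibroblast marker of highest CPM, they were 11240 and 6212 CPM in replicate 1 against 9813 to 32544 CPM. Those ranges overlapped, although replicate 1 stayed the lowest library of its group in each genotype. Lists of markers for alveolar, airway, endothelial, macrophage and fibroblast cells were all present, and no gene found was at 0 in every library. In whole tissue, fewer cells of a type and less RNA per cell cannot be told apart.

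No member passed the threshold. With edgeR, 0 of the 10 had an adjusted p under 0.05, and DESeq2 called 0. At an unadjusted p under 0.05 edgeR also had 0, the smallest being 0.0521 for Sdf2l1. The estimate was higher in KO for 3 members (Ddit3, Ern1, Sdf2l1) and lower for 7, with log2 fold changes from -0.69 for Asns to 0.57 for Sdf2l1. The median over the members was -0.14, against -0.01 over all genes tested. For 9 of the 10 the log2 fold change was under 2 standard errors, and for 4 it was under 1. Without overlap between the groups there was 1 member higher in KO, Sdf2l1, where 9.81% of all genes were so placed, and 1 lower, Atf4, where 11.3% of all genes were. The shares of all genes at an unadjusted p under 0.05 were 5.95% higher and 5.89% lower.

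**Figure D1:**
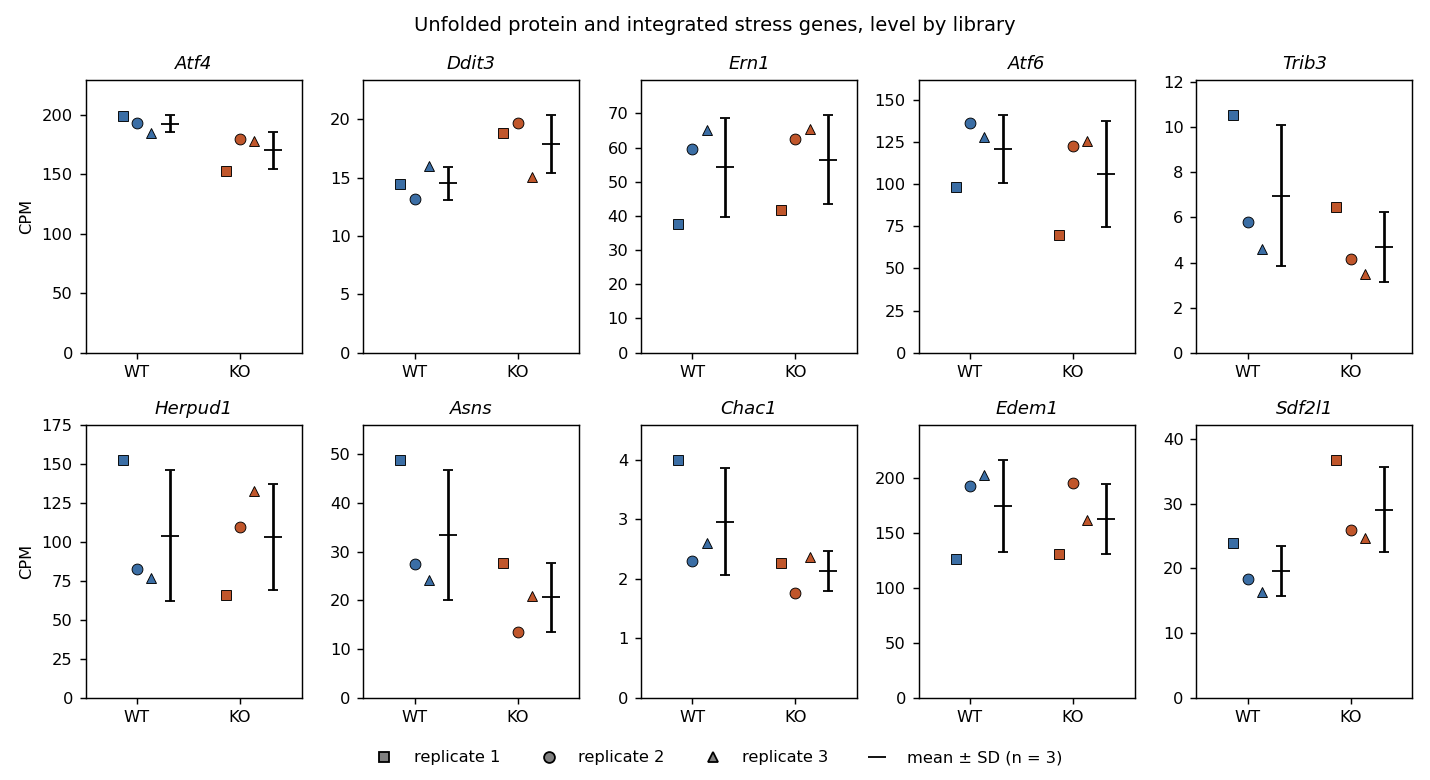
Level of each member in CPM (vertical axes, from 0) in the 3 WT and 3 KO libraries. Points are libraries, with the replicate given by the symbol, and bars are the mean ± SD of 3. The groups overlap for every member but Atf4, where KO lies lower, and Sdf2l1, where KO lies higher, and the squares of replicate 1 often lie at an end of the range.

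The sensors Ern1 and Atf6 differed more between libraries of 1 group than between genotypes. Ern1, the kinase and RNase that splices Xbp1, had 37.7, 59.7 and 65.1 CPM in WT replicates 1 to 3 and 41.7, 62.5 and 65.4 CPM in the KO. Replicate 1 was the lowest of its group in both genotypes, and the remaining libraries were nearly level across them. Its log2 fold change was 0.06 ± 0.28 (edgeR adjusted p = 0.957). Atf6, the Golgi-cleaved factor, had 98.2, 136.3 and 128.1 CPM in WT and 69.7, 122.7 and 125.9 CPM in KO, again with both replicate 1 libraries lowest. Its log2 fold change was -0.19 ± 0.28 (edgeR adjusted p = 0.838), and it was 0.04 without KO replicate 1. Its locus (chr1:170704674-170867771, GRCm38) also hosts 2 small nuclear RNA genes on the same strand. Eif2ak3, which encodes PERK and was picked for that role after its values were seen, had 42.8, 59.1 and 56.3 CPM in WT and 30.3, 54.2 and 56.2 CPM in KO. As with Ern1 and Atf6, replicate 1 was lowest in each group, and its log2 fold change was -0.17 ± 0.28 (edgeR adjusted p = 0.861).

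Of the transcription factors, Atf4 lay slightly lower and Ddit3 slightly higher in KO, neither past the threshold. Atf4, the factor whose translation is favoured when eIF2α is phosphorylated, had 199.2, 192.6 and 184.8 CPM in WT and 152.3, 179.9 and 178.0 CPM in KO. All KO libraries were under all WT libraries, but KO replicates 2 and 3 were close to the lowest WT library, and the estimate ran from -0.22 to -0.10 with 1 library left out. The means were 192.2 ± 7.21 and 170.1 ± 15.4 CPM (SD, n = 3 each), a log2 fold change of -0.18 ± 0.17 (edgeR adjusted p = 0.730). On the FPKM scale the means were 104.7 ± 2.04 and 96.9 ± 10.6 (SD, n = 3 each) and the groups overlapped, with 103.4 to 107.1 in WT and 84.7 to 104.0 in KO. Ddit3, whose product CHOP is a pro-apoptotic C/EBP family factor, had 14.4, 13.2 and 16.0 CPM in WT and 18.8, 19.7 and 15.05 CPM in KO. KO replicate 3 lay inside the WT range, so the groups overlapped. Its log2 fold change was 0.30 ± 0.20 (edgeR adjusted p = 0.607) and stayed between 0.22 and 0.41 whichever single library was left out. The Ddit3 gene shares 68 bases with Mars, a tRNA synthetase gene on the opposite strand with 10257 counts over the 6 libraries. Whether counting used strand is not given, so reads in that stretch are uncertain. On the same strand, the duplicate Ddit3 model with 0 counts shares 2925 bases with the tested Ddit3 row. How reads in those bases were assigned is not given either, so the level of Ddit3 carries that uncertainty.

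The ATF4 and CHOP targets Asns, Trib3 and Chac1 all had lower estimates in KO, with their highest value in WT replicate 1. Asns makes asparagine. It had 48.8, 27.5 and 24.2 CPM in WT and 27.7, 13.5 and 20.9 CPM in KO, a 3.61-fold range that was the widest of any member. Its log2 fold change was -0.69 ± 0.37, or 1.62-fold lower (edgeR adjusted p = 0.517). KO replicate 1 lay above WT replicates 2 and 3, so the groups overlapped. Trib3, a pseudokinase that restrains ATF4 and CHOP, had 10.5, 5.81 and 4.58 CPM in WT and 6.44, 4.17 and 3.48 CPM in KO. Replicate 1 was the highest library in each group, and the log2 fold change was -0.57 ± 0.42 (edgeR adjusted p = 0.645). Chac1, which degrades glutathione, was the lowest member with 3.99, 2.31 and 2.60 CPM in WT and 2.27, 1.76 and 2.37 CPM in KO. These values rest on 59 to 130 counts a library. Its log2 fold change was -0.47 ± 0.36 (edgeR adjusted p = 0.652). Leaving out 1 library at a time gave log2 fold changes from -0.96 to -0.32 for Asns, -0.86 to -0.15 for Trib3 and -0.62 to -0.20 for Chac1. In each case the estimate was closest to 0 without WT replicate 1. That library also held the most secretory airway marker signal, a sum of 12049 CPM against 311 to 4559 CPM in the others. Without Scgb1a1, the most abundant of those markers, the sum was 1806 CPM there and 60.5 to 941 CPM in the others. Other markers were also extreme in WT replicate 1. Heart and skeletal muscle markers were highest there (401 CPM, against 70.2 to 312 CPM), and endothelial markers lowest (1267 CPM, against 2049 to 4021 CPM). The part of airway or other cells in these values was not tested.

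**Figure D2:**
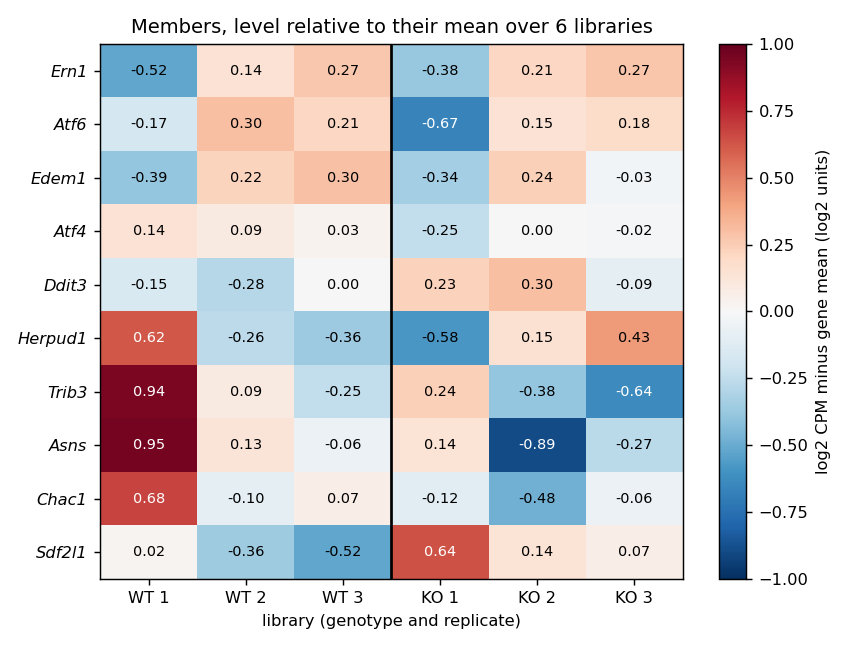
Log2 CPM of each member minus its mean over the 6 libraries, red above and blue below the mean, with the value printed in each cell. WT replicate 1 stands at 0.62 to 0.95 for Herpud1, Trib3, Asns and Chac1, while Ern1, Atf6 and Edem1 are below their means in both replicate 1 libraries.

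The ER-resident targets Herpud1, Edem1 and Sdf2l1 did not share a direction. Sdf2l1, a partner of BiP and its J-domain cochaperones, had 23.9, 18.3 and 16.4 CPM in WT and 36.7, 25.9 and 24.7 CPM in KO. Every KO library was above every WT library, although KO replicate 3 was only just above WT replicate 1. Its WT mean was 19.6 ± 3.89 CPM and its KO mean 29.1 ± 6.61 CPM (SD, n = 3 each), 1.49-fold higher. The log2 fold change was 0.57 ± 0.24, with an edgeR unadjusted p of 0.0521 and an adjusted p of 0.429. The FPKM means were 16.5 ± 2.56 in WT and 25.7 ± 5.29 in KO (SD, n = 3 each). Over 19 alternative analyses the estimate stayed higher in KO and the adjusted p ran from 0.0421, in limma-voom with sample weights, to 0.826. The unadjusted p fell under 0.05 in some of them, such as edgeR without the robust option, edgeR with total counts and limma on FPKM. It did not in others, such as DESeq2 and limma-voom without weights. Edem1, a mannose-trimming protein that sends misfolded glycoproteins to degradation, had 126.3, 193.0 and 203.1 CPM in WT and 130.9, 195.0 and 162.1 CPM in KO. Its replicate 1 libraries were again the lowest of each group, as for the sensors, and the log2 fold change was -0.10 ± 0.26 (edgeR adjusted p = 0.919). Leaving out WT replicate 3 turned that estimate to 0.03, and leaving out KO replicate 1 turned it to 0.04.

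Herpud1, a scaffold of the ER degradation complex, changed sign in 9 of 19 alternative analyses, the most of any member. It had 152.3, 82.4 and 77.0 CPM in WT and 66.2, 109.9 and 133.0 CPM in KO. The replicate 1 libraries were the extremes, highest in WT and lowest in KO, and the remaining 2 libraries of each group had the opposite order. Over all 6 libraries the means were 103.9 ± 42.0 and 103.0 ± 33.9 CPM (SD, n = 3 each), and the log2 fold change was -0.01 ± 0.37 (edgeR adjusted p = 0.994). Without both replicate 1 libraries it was 0.62 ± 0.12, with an edgeR unadjusted p of 0.00427 and an adjusted p of 0.0718 (n = 2 against 2). Over the 19 alternatives the adjusted p of Herpud1 ran from 0.0718 to 1.000 and the log2 fold change from -0.24 to 0.62. A noncoding gene on the opposite strand shares 535 bases with Herpud1 and is not in the table of counts.

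A replicate 1 library, of WT or of KO, was the highest or the lowest of the 6 libraries for 9 of the 10 members. That count takes either of 2 libraries at either end. The share of all genes so placed was not computed, so the count cannot be read as a trait of the members. In both genotypes replicate 1 was below the mean of its group's other libraries for Ern1, Atf6 and Edem1. It was above that mean in both for Trib3, Asns, Chac1 and Sdf2l1, and for Atf4, Ddit3 and Herpud1 it was above in one genotype and below in the other. Ratios to that mean were, for example, 0.605 in WT and 0.652 in KO for Ern1, and 1.89 and 1.61 for Asns. Herpud1 had 1.91 in WT and 0.545 in KO. Of the 10 members 5 were highest in WT replicate 1: Asns, Chac1, Trib3, Herpud1 and Atf4. Atf4 was so by little, with 199.2 CPM against 192.6 CPM in WT replicate 2. In KO replicate 1 these genes did not move together, with Asns and Trib3 the highest of the KO libraries and Herpud1 and Atf4 the lowest. The share of all genes highest in WT replicate 1 was not computed. Without both replicate 1 libraries edgeR called 46 of 16744 genes (0.275%), none of them a member, and had 5029 (30.0%) at an unadjusted p under 0.05. Of the members 2 were among the latter, Herpud1 and Sdf2l1, both higher in KO. The estimate for Sdf2l1 was then 0.55 ± 0.12 (edgeR adjusted p = 0.0779), and for Asns it was -0.58 ± 0.24 (edgeR adjusted p = 0.186). The share of members at that level is below the share of all genes.

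**Figure D3:**
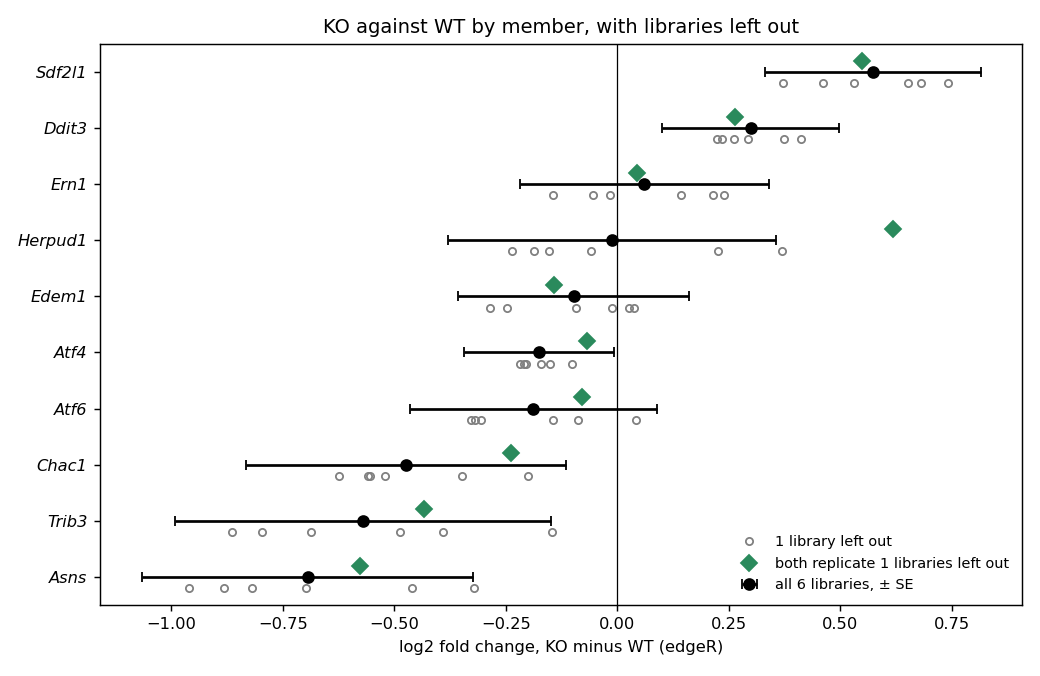
Log2 fold change, KO minus WT, of each member from edgeR. Black points with bars are all 6 libraries ± SE, open circles leave out 1 library, and green diamonds leave out both replicate 1 libraries. Only for Herpud1 does the diamond, at 0.62, lie outside the bar.

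The rest of the 2 pathways was read from 6 lists that hold 137 distinct tested genes, the 10 members included. Of these 46 had a higher and 91 a lower estimate in KO, while over all genes 51.0% were lower. None passed in edgeR (smallest adjusted p = 0.221), and 2 were higher (1.46%, against 5.95% of all genes) and 22 lower (16.1%, against 5.89%) at an unadjusted p under 0.05. DESeq2 called 1 higher (0.730%, against 1.91%) and 4 lower (2.92%, against 1.73%). The list of sensors, eIF2α kinases and factors had 10 higher and 13 lower estimates of 23 tested, none at an unadjusted p under 0.05, and a median log2 fold change of -0.05. Xbp1, the factor activated by IRE1, was level, with means of 231.7 ± 35.5 CPM for WT and 227.3 ± 9.53 CPM for KO (SD over 3 libraries). Dnajc3, which inhibits PERK, had a log2 fold change of 0.23 ± 0.18 and Eif2ak1, the heme-sensing eIF2α kinase, one of -0.29 ± 0.16. Nck1, an adaptor that brings a phosphatase to eIF2, had 34.3, 38.3 and 39.1 CPM in WT and 82.5, 47.4 and 43.3 CPM in KO, a log2 fold change of 0.63 ± 0.28. KO replicate 1 stood far above the rest, and the log2 fold change was 0.29 without it and 0.24 without both replicate 1 libraries.

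Targets of ATF4 and CHOP had 9 higher and 24 lower estimates of 33 tested, with 2 higher and 10 lower at an unadjusted p under 0.05 in edgeR (36.4% of the list against 11.8% of all genes), and 0 after adjustment. The median log2 fold change was -0.27, and -0.23 without both replicate 1 libraries. Eif4ebp1, the translation repressor 4E-BP1, had 85.0, 53.5 and 48.0 CPM in WT and 25.1, 34.8 and 28.9 CPM in KO. No library overlapped, and the log2 fold change was -1.07 ± 0.27 (adjusted p = 0.258 in edgeR and 0.0335 in DESeq2). Shmt2, a mitochondrial serine-to-glycine enzyme, had 32.7, 28.7 and 28.6 CPM in WT and 20.1, 21.3 and 19.9 CPM in KO (log2 fold change -0.55 ± 0.16, edgeR adjusted p = 0.276). The targets of highest CPM had overlapping groups, with log2 fold changes of -0.10 ± 0.24 for the amino acid transporter subunit Slc3a2 and 0.20 ± 0.91 for Cebpb. Outside the naming rule, and chosen after their values were seen, the serine synthesis genes Phgdh, Psat1 and Psph had log2 fold changes of -1.13 ± 0.43, -0.84 ± 0.29 and -0.71 ± 0.27. Chosen in the same way, Ddit4, an inhibitor of mTORC1, had -1.36 ± 0.40 (DESeq2 adjusted p = 0.0453). The leucine transporter Slc7a5 had -1.29 ± 0.43, and it was the 1 list gene that edgeR called without both replicate 1 libraries, at -1.12 ± 0.10 (adjusted p = 0.0442). Against that direction, the stress cytokine Gdf15 had 5.25, 10.6 and 12.7 CPM in WT and 17.8, 24.0 and 32.01 CPM in KO, a log2 fold change of 1.37 ± 0.39 (DESeq2 adjusted p = 0.0364). The groups of Gdf15 did not overlap. Cebpg, a partner of ATF4 in binding DNA and the other gene higher at an unadjusted p under 0.05, had 84.6, 51.3 and 54.8 CPM in WT and 109.2, 97.3 and 90.1 CPM in KO, a log2 fold change of 0.64 ± 0.24 (edgeR adjusted p = 0.382). Its groups did not overlap either.

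The list of cytosolic tRNA synthetases, many of which ATF4 controls, held 14 synthetases and the tRNA export receptor Xpot. Of the synthetases 1 had a higher and 13 a lower estimate, and Xpot had a log2 fold change of -0.28 ± 0.19. Of the 15 genes, 4 were lower at an unadjusted p under 0.05 in edgeR (26.7%, against 5.89% of all genes) and 10 were lower without overlap between groups (66.7%, against 11.3%). The list's median log2 fold change was -0.32, and -0.24 without both replicate 1 libraries. Gars, the glycine enzyme, whose promoter window also holds the C/EBP-ATF element 30 bases before its start, had 165.9, 157.3 and 140.3 CPM in WT and 107.4, 96.7 and 89.9 CPM in KO. Each KO library was well below each WT library, with a log2 fold change of -0.66 ± 0.17 (adjusted p = 0.258 in edgeR and 0.0488 in DESeq2). Mars, the methionine enzyme, had -0.44 ± 0.15 and lies beside Ddit3 as described. The synthetases of highest CPM, Nars and Wars, had -0.32 ± 0.18 and -0.10 ± 0.17.

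**Figure D4:**
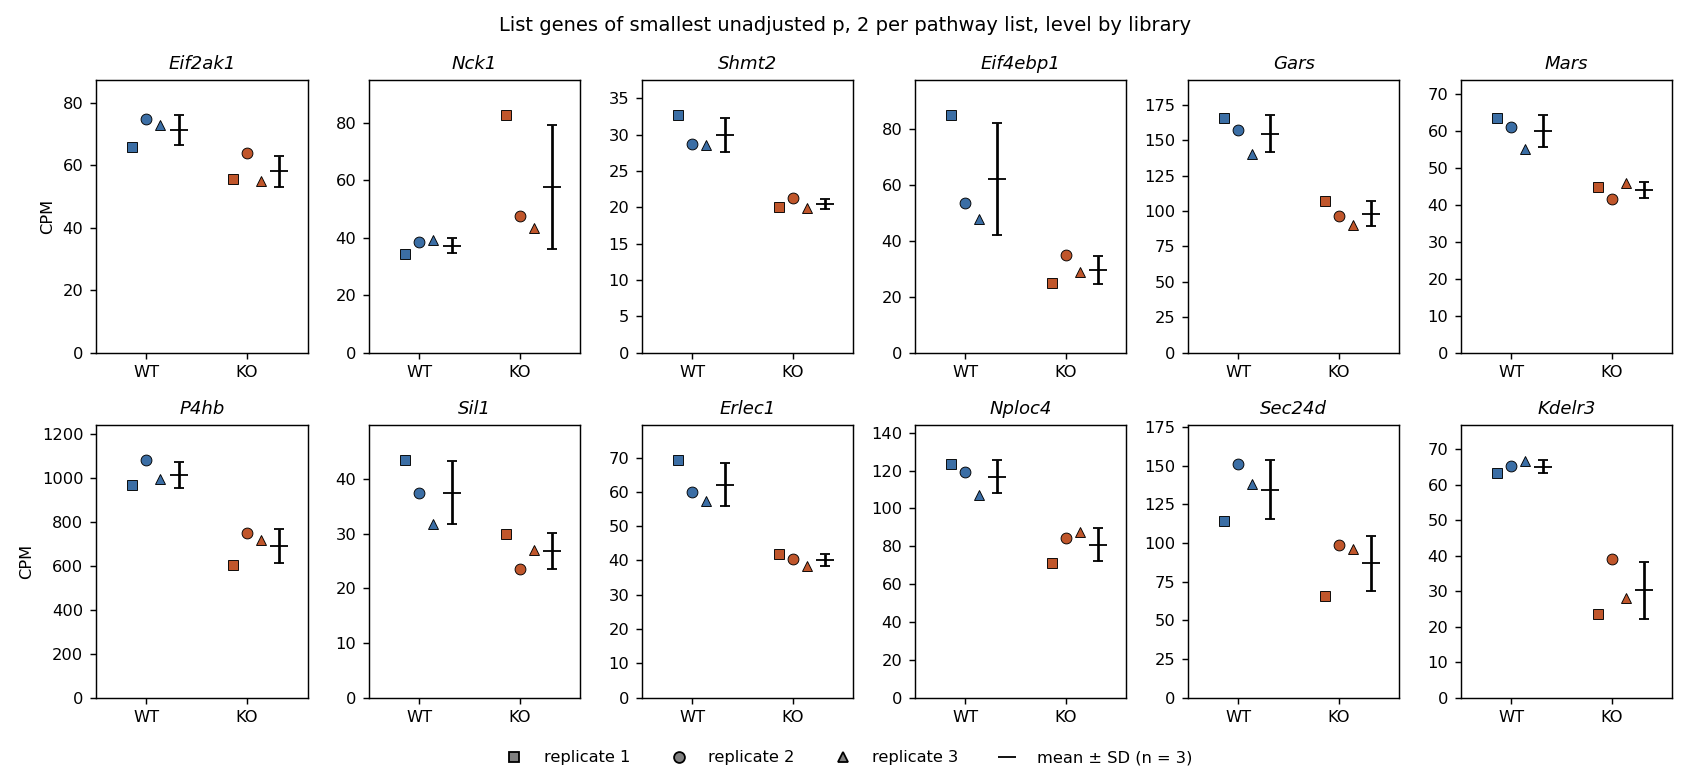
Level in CPM (vertical axes, from 0) of the 2 genes of smallest unadjusted p in each of the 6 lists, with points for the 3 WT and 3 KO libraries and bars for the mean ± SD. The genes were picked by that p, so their separation is a description. Nck1 is the one of the 12 that lies higher in KO.

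ER chaperones and folding enzymes were the 1 list with mostly higher estimates, 17 of 23 tested, and a median log2 fold change of 0.16. In edgeR 0 were higher (against 5.95% of all genes) and 2 lower (8.70%, against 5.89%) at an unadjusted p under 0.05. Without overlap between groups 4 were higher (17.4%, against 9.81%) and 4 lower (17.4%, against 11.3%). Hspa5, whose ER stress element is printed above, had 530.8, 827.8 and 860.5 CPM in WT and 670.8, 1987 and 1569 CPM in KO. KO replicates 2 and 3 were above every WT library, but KO replicate 1 was not, and the log2 fold change was 0.93 ± 0.45 (edgeR adjusted p = 0.474). Without both replicate 1 libraries it was 1.08 (edgeR adjusted p = 0.0617), and over 19 alternatives the adjusted p ran from 0.0294 to 0.823. P4hb, the disulfide isomerase that is also a subunit of collagen prolyl hydroxylase, went the other way with 967.8, 1079 and 993.3 CPM in WT and 603.5, 748.7 and 717.8 CPM in KO. Its log2 fold change was -0.55 ± 0.22, and Sil1, the nucleotide exchange factor of BiP, had -0.48 ± 0.19 (edgeR adjusted p = 0.407 for both).

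ER-associated degradation, the list of Herpud1 and Edem1, had 8 higher and 15 lower estimates of 23 tested, and a median log2 fold change of -0.10. In edgeR 3 genes were lower at an unadjusted p under 0.05 (13.04%, against 5.89% of all genes) and 0 higher (against 5.95%). Without overlap between groups 4 were lower (17.4%, against 11.3%) and 0 higher (against 9.81%). The lectin Erlec1 had 69.1, 60.0 and 57.2 CPM in WT and 41.9, 40.5 and 38.4 CPM in KO, a log2 fold change of -0.63 ± 0.16 (edgeR adjusted p = 0.253). The groups did not overlap. Nploc4, a cofactor of the Vcp segregase, had -0.53 ± 0.17, whereas Vcp itself had -0.18 ± 0.24. Translocation and vesicle transport had 4 higher and 19 lower estimates of 23 and a median of -0.35. That median was -0.16 without WT replicate 1 and -0.19 without both replicate 1 libraries. Again 3 genes were lower at an unadjusted p under 0.05 in edgeR (13.04%, against 5.89% of all genes) and 0 higher. Without overlap between groups 6 were lower (26.1%, against 11.3%) and 1 higher (4.35%, against 9.81%). Kdelr3, a receptor that returns escaped ER proteins, had 63.1, 65.2 and 66.7 CPM in WT and 23.5, 39.1 and 28.2 CPM in KO. It had the smallest p of all list genes, with a log2 fold change of -1.10 ± 0.22 (adjusted p = 0.221 in edgeR and 0.00472 in DESeq2). Sec24d, a COPII coat subunit, had -0.63 ± 0.22, Sec61a1, the channel subunit, -0.53 ± 0.27, and Ssr3, of the translocon-associated complex, -0.40 ± 0.19.

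**Figure D5:**
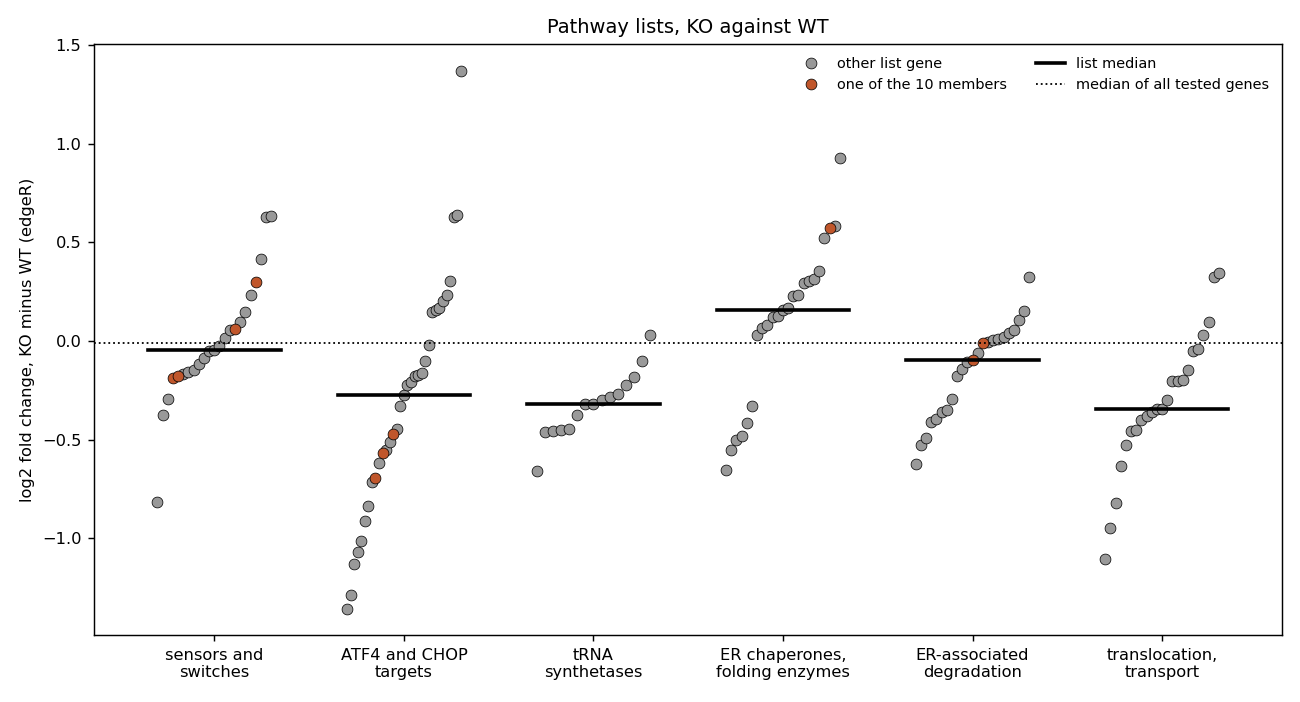
Log2 fold change, KO minus WT, from edgeR for every tested gene of the 6 lists (points, with the 10 members in orange), sorted within each list. Thick lines are list medians, from -0.35 for translocation and transport to 0.16 for chaperones, and the dotted line is the median of all genes, -0.01.

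Cell type markers differed between the same libraries. The 12 matrix-producing fibroblast markers all had lower estimates in KO, and summed to 13168, 42781 and 44918 CPM in WT replicates 1 to 3 and to 7002, 25311 and 13807 CPM in KO. Spp1, not particular to fibroblasts, had 4514, 7057 and 6209 CPM of these in WT and 3579, 2166 and 1108 CPM in KO. All 12 type 2 alveolar markers had higher estimates, with sums of 11516, 3237 and 2210 CPM in WT and 22851, 4177 and 11897 CPM in KO. Both sets of sums overlapped between the genotypes. The T and NK cell markers found, 11 of 12, all had higher estimates and did not overlap in sum, with 16.7 to 33.6 CPM for WT and 65.6 to 82.2 CPM for KO. Plasma cell marker sums, from 9 of 12 genes found, were 288 to 520 CPM in WT and 312 to 323 CPM in KO. They rest largely on Sdc1, which epithelium also expresses, and without it they were 89.3 to 148 CPM in WT and 85.6 to 171 CPM in KO. Of the macrophage markers 9 of 12 had lower estimates in KO. Their sums, 6416 to 7172 CPM in WT and 5287 to 21563 CPM in KO, were led by Lyz2, which type 2 alveolar cells also express and which alone had 18786 CPM in KO replicate 1. Without Lyz2 the macrophage sums were 2818 to 3458 CPM in WT and 1263 to 2776 CPM in KO. Endothelial sums 1267 to 3858 and 2049 to 4021 CPM, and type 1 alveolar sums 2574 to 7375 and 3228 to 9170 CPM. Heart and skeletal muscle markers summed to 70.2 to 401 CPM in WT and 131 to 312 CPM in KO. The part of cell composition in the levels of the members and of the list genes was not tested.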

How the data were processed

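RNA from lung tissue of 3 WT and 3 KO mice was extracted with TRIzol and made into libraries with an NEBNext Ultra kit, per the labels' protocols. Whole-number counts per gene, not normalized, were deposited, 1 column per library. FPKM values were also deposited, in a table whose KO columns carry no usable replicate number. The submitters' processing notes name HISAT2 2.0.4, StringTie 1.3.4d and GRCm38 without their roles. How counting treated strand and reads shared by genes is not stated in these sources.

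All genes were fitted in edgeR 4.0.16 under R 4.3.3: filterByExpr, TMM factors, a robust quasi-likelihood fit on genotype alone and Benjamini-Hochberg adjustment over 16633 genes, 2-sided, threshold 0.05. SE was obtained by dividing the size of the log2 fold change by the root of the F statistic, so it carries the same information as the unadjusted p. Alternatives were DESeq2 1.42.0, limma 3.58.1 with voom (also with sample weights), other size factors, low-count filters of none or 1 CPM in 3 libraries, no robust prior, the replicate number as a block, limma on log2(FPKM + 1) and log2(FPKM + 0.1) with a filter of 0.5 FPKM and without, each library left out, and both replicate 1 libraries left out. Scripts were tested on simulated data. Separate mice are stated by the study's design, and p-values reflect the spread over these 6 mice. CPM heat values used a prior count of 2. Chac1 had the fewest counts, 59 to 130 a library, and counting noise was not separated from the spread between mice.

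The members, lists, alternatives and rules were chosen with earlier results of these data known. The naming rule took all members, Clec7a and, in each pathway list, the 2 genes of highest CPM and the 2 of smallest unadjusted p. One gene that the rule named in the ER-associated degradation list is not reported here. Lists were described by counts and medians and not tested. Coordinates and overlaps come from the GRCm38 annotation, and promoter windows from RefSeq (GRCm38.p6), where 9 of 10 members matched.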

Additional observations from a re-analysis of the deposited data

How the results depend on the processing

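Over 19 alternatives the 10 members gave 190 values, of which 174 kept the direction and the side of the threshold, 1 passed the threshold and 15 reversed in sign. The 1 that passed was Sdf2l1 in limma-voom with sample weights, so members called went from 0 to 1 of 10 there, where 2221 of 16633 genes were called. Over the whole table DESeq2 called 678 of 18663 genes, and edgeR called 46 of 16744 without both replicate 1 libraries. With 1 library left out 0 to 3 were called, where the 1 and the 3 came without KO replicate 1 and KO replicate 2. Of the 137 genes in the pathway lists, 5 were called in DESeq2, 31 in limma-voom with sample weights and 1 without both replicate 1 libraries. Median log2 fold changes moved for tRNA synthetases to -0.26 on log2(FPKM + 1), with and without the filter, and to -0.24 without both replicate 1 libraries. For translocation and transport it was -0.19 without both, and with 1 library left out it ran from -0.35 to -0.16. With 1 library left out the median of the members ran from -0.23 to 0.039 and that of ER-associated degradation from -0.18 to -0.065. Reversed estimates of Herpud1 were 0.49 in limma-voom with sample weights, 0.053 with total counts, 0.063 on log2(FPKM + 1) with and without the filter, 0.064 on log2(FPKM + 0.1), 0.62 without both replicate 1 libraries, and with 1 library left out from -0.24 to 0.37. Those of Xbp1 were 0.13, 0.026, 0.059, 0.059 and 0.15 in the same order, and from -0.10 to 0.10 with 1 library left out. With 1 library left out, estimates ran from -0.14 to 0.24 for Ern1, -0.33 to 0.041 for Atf6, -0.29 to 0.037 for Edem1, -0.34 to 0.61 for Cebpb, -0.27 to 0.077 for Slc3a2 and -0.29 to 0.017 for Vcp. Without both replicate 1 libraries Cebpb was at -0.025 and Slc3a2 at 0.006. The cause of these moves was not tested, beyond the smaller number of libraries where some were left out.

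The replicate numbers were not taken to pair the samples, and correlations over 3 libraries a group cannot settle whether they do. Same-numbered WT and KO libraries had correlations of 0.35, 0.35 and -0.10 of their deviations from the group means. WT replicates 1 and 2 each correlated best with the KO library of the same number. WT replicate 3 correlated best with KO replicate 2 (0.47). With the replicate block edgeR called 0 genes and had 3387 of 16633 genes at an unadjusted p under 0.05, against 1968 without it. Among the 10 members Asns and Sdf2l1 were at that level. The log2 fold change of Herpud1 with the block was 0.016.

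The chief limits are 3 mice a group, replicate 1 libraries that differ in marker and mitochondrial content, and whole tissue. RNA levels do not report splicing of Xbp1, cleavage of ATF6 or translation of ATF4. With no untreated lung, no value says whether the pathways were active in either group.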

Other observations

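Atf3, Ppp1r15a and Cebpb, picked from the lists because of this pattern, were low in both replicate 1 libraries. Atf3, which ATF4 induces and which is also an immediate early gene, had 26.4 CPM in WT replicate 1 and 31.9 CPM in KO replicate 1, against 162.9 and 209.4 CPM in the other WT libraries and 283.7 and 300.6 CPM in the other KO libraries. Ppp1r15a (GADD34), the phosphatase subunit that reverses eIF2α phosphorylation, had 69.9 and 42.4 CPM in the replicate 1 libraries and 149.5 to 218.4 CPM in the others. Cebpb had 16.9 and 113.9 CPM there and 245.6 to 288.8 CPM in the others. Other factors of the same lists did not share it: Ddit3 lay inside its group's range in both replicate 1 libraries, and Atf5 was highest of its group there, with 49.4 CPM (WT) and 40.4 CPM (KO). Asns and Trib3 also had replicate 1 highest in each group.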
